A study of Mus musculus with 6 samples.

Results

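The sterol synthesis genes of the embryonic mouse palate are described here across 6 bulk RNA-seq libraries. The 28 genes were listed by function: enzymes of the mevalonate and sterol pathways, the SREBP factors with their regulators, and carriers of cholesterol. All 28 were found by gene ID among the 55631 genes of the table, and all 28 were among the 14714 genes whose mean reached 1 FPKM (fragments counted per length of gene and per library size) that were tested. The libraries were made from palatal shelves of E14.5 embryos, the paired outgrowths that form the roof of the mouth. The 3 control embryos were p130Casfl/fl, with loxP sites in both copies of the gene for the adhesion adaptor p130Cas, and their labels name no Cre. The 3 KO embryos were p130Casfl/fl; CAG-Cre, with the same alleles and Cre recombinase under CAG, a promoter that is active in most cell types. The comparison addresses how the p130Cas KO genotype affects transcripts of the growing palate, in a model that the series title ties to cleft palate. Cre is named for the KO embryos only, so an effect of Cre itself cannot be told apart from one of losing p130Cas.

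Bcar1, which encodes p130Cas, stood at 1.80, 1.97 and 2.09 FPKM in the controls and at 1.69, 1.69 and 1.31 FPKM in the KO libraries, in the order of replicates 1 to 3 used throughout (log2 difference -0.21 ± 0.11, SE; limma, adjusted p = 1.00), so its transcript remained in the KO libraries. A whole-gene value can hold exons that are not between the loxP sites. Exons were not read apart, so how far the gene was recombined was not tested. The 8 markers of palatal mesenchyme were above 0 in all 6 libraries, and their summed level ran from 961 to 1150 FPKM in the controls and from 916 to 1210 FPKM in the KO libraries. KO replicate 2 was the 1 library with Xist (61.0 FPKM) and without the Y-linked Ddx3y, the pattern of a female embryo, and the other 5 had the pattern of males. The labels do not say whether embryos came from separate litters, so the tests measure the spread between these samples.

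Cholesterol is built from acetyl-CoA by way of mevalonate, which is turned into isoprenoid units that are joined to squalene. Squalene is closed to lanosterol, the first sterol, and a chain of enzymes of the endoplasmic reticulum then trims lanosterol to cholesterol. When membranes run low on sterol, Scap carries the membrane-bound SREBP precursors to the Golgi, where they are cleaved to free a transcription factor that turns on the same pathway. Insig proteins hold Scap back when sterol is plentiful. In the face the pathway is known for its defects: loss of Dhcr7, a closing step of the pathway, causes Smith-Lemli-Opitz syndrome, in which a cleft palate is common, and cholesterol is attached to the Hedgehog signal that patterns facial tissue.

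None of the 28 genes passed the test for a difference between KO and control shelves. In limma, 0 were higher and 0 were lower at an adjusted p under 0.05, where 0.326% of all tested genes were higher and 0.00680% were lower. The median log2 difference of the 28 genes (KO minus control, on log2(FPKM + 1)) was -0.04, with 7 above and 21 below 0 (17 below 0 after median-of-ratios scaling and 15 after rescaling to TPM), and the median over all tested genes was -0.02, with 59.4% below 0. Single differences lay between -0.25 for Tm7sf2 and 0.16 for Dhcr7. Their standard errors ran from 0.05 to 0.16. Every 95% confidence interval fell between -0.49 and 0.49, which on that scale are 28.9% lower and 1.40-fold higher. Each interval is for 1 gene and is not adjusted for the 28, so these ends are not a joint bound. At an unadjusted p under 0.05 there was 1 of the 28 genes, Tm7sf2, against 4.01% of all tested genes. The groups did not overlap in 1 gene, Srebf2, with KO lower, a pattern found in 5.79% of tested genes. In 0 of the 28 genes was KO higher without overlap, a pattern found in 3.27% of tested genes. In bulk tissue, fewer cells of a type and less RNA per cell cannot be told apart.

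**Figure D1:**
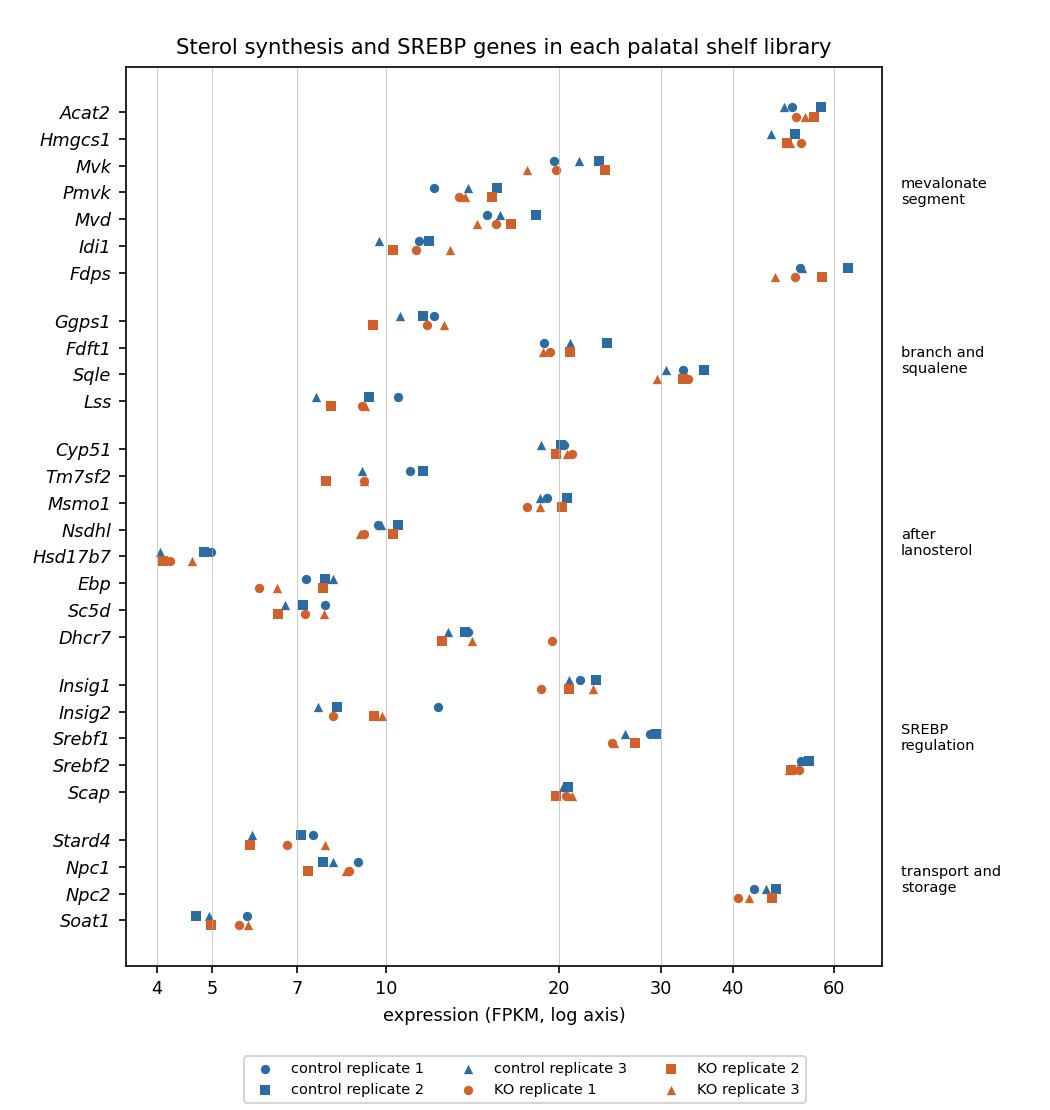
Expression in FPKM (log axis) of the 28 genes in each of the 6 libraries, grouped by role, with controls in blue above KO libraries in orange and a marker shape for each replicate. The genes span Hsd17b7, at 4.06 to 4.98 FPKM, to Fdps, at 47.4 to 63.3 FPKM, and the colours overlap in every gene except Srebf2.

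Levels, which FPKM gives per length, differed far more between genes than between genotypes. Fdps, Acat2, Srebf2 and Hmgcs1 led, with means over the 6 libraries of 54.0, 52.8, 52.0 and 50.3 FPKM, and their ranges overlapped, so their order is not resolved. Npc2 followed at 44.5 FPKM, and below it Sqle at 32.4 and Srebf1 at 26.8 FPKM each stood clear of both neighbours in that order. Stard4, at 6.81 FPKM, stood clear above Soat1 at 5.28 and Hsd17b7 at 4.47 FPKM, which overlapped. Of the 27 pairs of neighbours, 23 had overlapping ranges. Among all tested genes the control level of Fdps was at the percentile 92.8 and that of Hsd17b7 at 30.9. By role, the median control level was 21.5 FPKM for the 7 genes of the mevalonate segment, 16.4 FPKM for the 4 genes of the branch point and squalene, and 10.3 FPKM for the 8 genes after lanosterol.

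Promoter sequence was then read for what these genes share at the DNA level, since the SREBP factors bind with the cofactor NF-Y. RefSeq windows (GRCm38.p6) that run from 250 bases before to 50 after a transcript's start were given for 23 of the genes. There was none for Fdps, Fdft1, Sqle, Stard4 and Npc1. The NF-Y box CCAAT, searched on both strands like the others, was in at least 1 window of 21 of the 23 genes (91.3%), beside 41.1% of all 27025 genes and 43.1% of 10330 tested genes in that table. The 2 without it were Acat2 and Scap. Counted by window, it was in 22 of 31 (71.0%), beside 37.4% of all windows. The GC box GGGCGG was in 21 of the 23 genes, beside 38.2% of all and 69.9% of tested genes, and the E-box CACGTG was in 5, beside 8.09% and 11.5%. The sterol element TCACNCCAC was in 1 of the 23 genes, Hmgcs1, beside 1.44% of all genes. A match is a run of letters, not a measured binding site. Only exact matches in these windows were counted, so an element that varies in sequence or lies elsewhere is missed.

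The windows below were chosen for the sterol element (Hmgcs1), the most NF-Y boxes (Mvk) or both an NF-Y box and an E-box (Insig1 and Hsd17b7). The others belong to the factor that heads the pathway (Srebf2) and an X-linked enzyme (Ebp). The Sc5d window, not shown, also holds both an NF-Y box and an E-box. Dhcr7, not shown either, had NF-Y boxes and an E-box among its 3 windows, though not necessarily in the same window. Capitals mark the sterol element, NF-Y boxes and E-boxes on either strand, so CCAAT reads ATTGG on the other strand. Each runs 5′ to 3′ on the gene's strand and leaves out bases in any annotated exon. They lie at chr13:119690101-119690350 on the plus strand (Hmgcs1), chr5:114444061-114444268 plus (Mvk), chr5:28071162-28071362 plus (Insig1), chr1:169969242-169969408 minus (Hsd17b7), chr15:82147019-82147180 plus (Srebf2) and chrX:8193513-8193762 minus (Ebp).
Hmgcs1: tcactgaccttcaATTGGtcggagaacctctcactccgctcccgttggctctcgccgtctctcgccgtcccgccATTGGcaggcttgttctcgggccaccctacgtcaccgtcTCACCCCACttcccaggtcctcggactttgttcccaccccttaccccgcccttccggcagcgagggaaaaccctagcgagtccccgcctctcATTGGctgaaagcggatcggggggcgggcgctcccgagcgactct
Mvk: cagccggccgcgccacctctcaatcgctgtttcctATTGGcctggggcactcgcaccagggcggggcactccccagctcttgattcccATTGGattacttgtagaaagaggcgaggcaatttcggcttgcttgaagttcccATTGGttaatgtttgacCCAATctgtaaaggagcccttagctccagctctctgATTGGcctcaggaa
Insig1: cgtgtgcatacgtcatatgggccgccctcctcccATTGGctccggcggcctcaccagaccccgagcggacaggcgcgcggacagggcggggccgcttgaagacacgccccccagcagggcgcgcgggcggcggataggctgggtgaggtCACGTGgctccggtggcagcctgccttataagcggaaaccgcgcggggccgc
Hsd17b7: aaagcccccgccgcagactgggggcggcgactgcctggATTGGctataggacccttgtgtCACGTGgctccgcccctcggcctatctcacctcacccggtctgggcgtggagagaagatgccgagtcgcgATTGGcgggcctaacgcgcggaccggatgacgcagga
Srebf2: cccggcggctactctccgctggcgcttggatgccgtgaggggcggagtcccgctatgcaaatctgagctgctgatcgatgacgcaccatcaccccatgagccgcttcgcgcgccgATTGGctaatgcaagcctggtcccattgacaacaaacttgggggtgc
Ebp: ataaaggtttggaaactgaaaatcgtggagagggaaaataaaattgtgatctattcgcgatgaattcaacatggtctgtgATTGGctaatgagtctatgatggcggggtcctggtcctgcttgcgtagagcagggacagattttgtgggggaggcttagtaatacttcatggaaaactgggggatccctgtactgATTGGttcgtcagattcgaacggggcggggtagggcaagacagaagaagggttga

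In the Hmgcs1 window the sterol element TCACCCCAC lies between NF-Y boxes, of which the printed stretch holds 3. The Mvk stretch holds 5 NF-Y boxes and the Ebp stretch 2. The Insig1 and Srebf2 stretches hold 1 each, and the Hsd17b7 stretch holds 2 with 1 E-box. The levels of these 6 genes ranged from 4.47 FPKM (Hsd17b7) to 52.0 FPKM (Srebf2), and none of the 6 passed the test.

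The mevalonate segment opens with Acat2, which joins acetyl-CoA units, and Hmgcs1, the synthase that makes HMG-CoA. Hmgcs1 (chromosome 13, 119690379 to 119708260, plus strand of GRCm38) was at 51.2, 51.3 and 46.6 FPKM in the controls and 52.6, 49.6 and 50.3 FPKM in the KO libraries. The KO values lay inside the control range except KO replicate 1, just above it, and the log2 difference was 0.03 ± 0.06 (SE; limma, adjusted p = 1.00). Acat2 was at 50.6, 57.0 and 49.1 FPKM in the controls and 51.4, 55.3 and 53.3 FPKM in the KO libraries, all KO values being inside the control range. Its near-identical neighbour Acat3, at 2.79 to 5.53 FPKM, makes the split of reads between the 2 genes uncertain.

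The kinases and the decarboxylase that turn mevalonate into isopentenyl diphosphate, Mvk, Pmvk and Mvd, had log2 differences of -0.08, 0.03 and -0.07. Mvd (chromosome 8, 122433601 to 122443422, minus strand) was at 15.0, 18.2 and 15.8 FPKM in the controls and 15.5, 16.5 and 14.4 FPKM in the KO libraries, with control replicate 2 highest and KO replicate 3 lowest. Mvk was high in replicate 2 of each genotype, at 23.4 and 24.0 FPKM, and lay between 17.6 and 21.6 FPKM in the other libraries. Pmvk ran from 12.1 FPKM in control replicate 1 to 15.6 FPKM in control replicate 2, and the KO values lay inside that span. Idi1, the isomerase of the first isoprenoid unit, was at 9.73 to 11.9 FPKM in the controls and 10.3 to 12.9 FPKM in the KO libraries.

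Fdps, which makes farnesyl diphosphate, had the smallest unadjusted p of the segment. It was at 52.3, 63.3 and 52.8 FPKM in the controls and 51.2, 57.1 and 47.4 FPKM in the KO libraries, a log2 difference of -0.11 ± 0.10 (SE; limma, adjusted p = 1.00). The highest value was control replicate 2, and the groups overlap. The difference of Fdps was -0.02 without control replicate 2, -0.18 without KO replicate 2 and -0.05 without KO replicate 3. Fdps (chromosome 3, 89093588 to 89101959, minus strand) shares 26.7% of its exon bases with the annotated gene Gm43738 on the same strand, so its reads may be split.

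At the branch point, Ggps1 makes the geranylgeranyl group that anchors small GTPases, and Fdft1 commits farnesyl units to sterol by forming squalene. Fdft1 (chromosome 14, 63145150 to 63179578, minus strand) was at 18.8, 24.2 and 20.9 FPKM in the controls and 19.3, 20.9 and 18.7 FPKM in the KO libraries, a log2 difference of -0.11 ± 0.10 (SE; limma, adjusted p = 1.00). Control replicate 2 was again the highest library, and the other 5 lay within 18.7 to 20.9 FPKM. The difference of Fdft1 was -0.01 without control replicate 2, -0.19 without control replicate 1 and -0.07 without KO replicate 3. Fdft1 shares 18.3% of its exon bases with Ctsb on the opposite strand, and the strand setting of the authors' counting is not given in the sources used here.

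Sqle, the epoxidase that adds oxygen to squalene, was at 32.8, 35.6 and 30.6 FPKM in the controls and 33.4, 32.8 and 29.5 FPKM in the KO libraries (log2 difference -0.05). Lss, which closes the ring to give lanosterol, was at 10.5, 9.33 and 7.55 FPKM in the controls and 9.09, 8.04 and 9.19 FPKM in the KO libraries (log2 difference -0.04). The KO values of Lss all fell inside the control range. Ggps1 was at 10.6 to 12.1 FPKM in the controls and 9.48 to 12.6 FPKM in the KO libraries, with KO replicate 2 lowest and KO replicate 3 highest.

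Of the enzymes after lanosterol, Tm7sf2, a sterol reductase, had the lowest value of all 28 differences. It was at 11.0, 11.6 and 9.09 FPKM in the controls and 9.15, 7.87 and 9.15 FPKM in the KO libraries. KO replicates 1 and 3 lay just above control replicate 3, so the groups overlap. The means were 10.6 ± 1.31 FPKM in control and 8.72 ± 0.740 FPKM in KO shelves (SD, n = 3 each). The log2 difference was -0.25 ± 0.11 (SE; limma, adjusted p = 1.00, unadjusted p = 0.0482). Tm7sf2 (chromosome 19, 6062821 to 6068373, minus strand) shares 12.1% of its exon bases with Vps51 on the same strand. Across the 19 alternative settings its difference stayed below 0, between -0.34 and -0.18, and its adjusted p ran from 0.325 to 1.00.

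Dhcr7, the reductase whose loss is tied to cleft palate, had the highest difference. It was at 13.9, 13.7 and 12.8 FPKM in the controls and at 19.4, 12.5 and 14.1 FPKM in the KO libraries. KO replicate 1 stood above all other libraries, while KO replicate 2 was below every control, and the means were 13.5 ± 0.623 FPKM in control and 15.4 ± 3.60 FPKM in KO shelves (SD, n = 3 each). The log2 difference was 0.16 ± 0.14 (SE; limma, adjusted p = 1.00), and it was -0.01 without KO replicate 1 and 0.28 without KO replicate 2. With library weights, which were 2.14 for KO replicate 1 and 0.37 for KO replicate 2, it was 0.33 (limma, adjusted p = 0.313). With the sex covariate it was 0.28 (limma, adjusted p = 0.682). That covariate marks KO replicate 2 alone, so this fit nearly repeats the one without that library. Dhcr7 lies on chromosome 7 from 143823145 to 143848410, plus strand. KO replicate 1 was also high for cartilage markers, whose 8 genes summed to 599 FPKM there. The sums were 267, 233 and 506 FPKM in the controls and 118 and 103 FPKM in KO replicates 2 and 3. Control replicate 3, with the highest cartilage sum of the controls, had their lowest Dhcr7 value. The part of cartilage cells in the Dhcr7 value was not tested.

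Ebp, the sterol isomerase, and Nsdhl, which removes a methyl carbon, are both X-linked. Ebp (X chromosome, 8185329 to 8193512, minus strand) was at 7.27, 7.83 and 8.10 FPKM in the controls and 6.02, 7.79 and 6.46 FPKM in the KO libraries, a log2 difference of -0.18 ± 0.10 (SE; limma, adjusted p = 1.00). The female library, KO replicate 2, lay among the male controls, and the 2 male KO libraries lay below all of them. Without KO replicate 2 the log2 difference of Ebp was -0.27 (limma, adjusted p = 0.685). Nsdhl was at 9.69, 10.5 and 9.80 FPKM in the controls and 9.17, 10.3 and 9.02 FPKM in the KO libraries, with KO replicate 2 again among the controls and the other KO libraries below them. Its difference moved from -0.07 to -0.12 without KO replicate 2 (limma, adjusted p = 0.686). The pattern was not limited to X-linked genes. The autosomal Npc2, Srebf1 and Fdps also had KO replicate 2 among the controls and the other KO libraries below them. A sex effect on Ebp and Nsdhl cannot be told apart from that 1 library.

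The remaining enzymes of the segment differed little. Cyp51, the demethylase of lanosterol, was at 20.4, 20.1 and 18.6 FPKM in the controls and 21.0, 19.7 and 20.6 FPKM in the KO libraries (log2 difference 0.05 ± 0.06, SE). Msmo1, the methyl oxidase, ran from 18.5 to 20.6 FPKM in the controls and 17.6 to 20.2 FPKM in the KO libraries. Hsd17b7, a ketoreductase of the pathway, ran from 4.06 to 4.98 FPKM in the controls and 4.10 to 4.61 FPKM in the KO libraries, inside the control range. Sc5d, the desaturase, ran from 6.67 to 7.83 FPKM in the controls and 6.49 to 7.81 FPKM in the KO libraries.

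**Figure D2:**
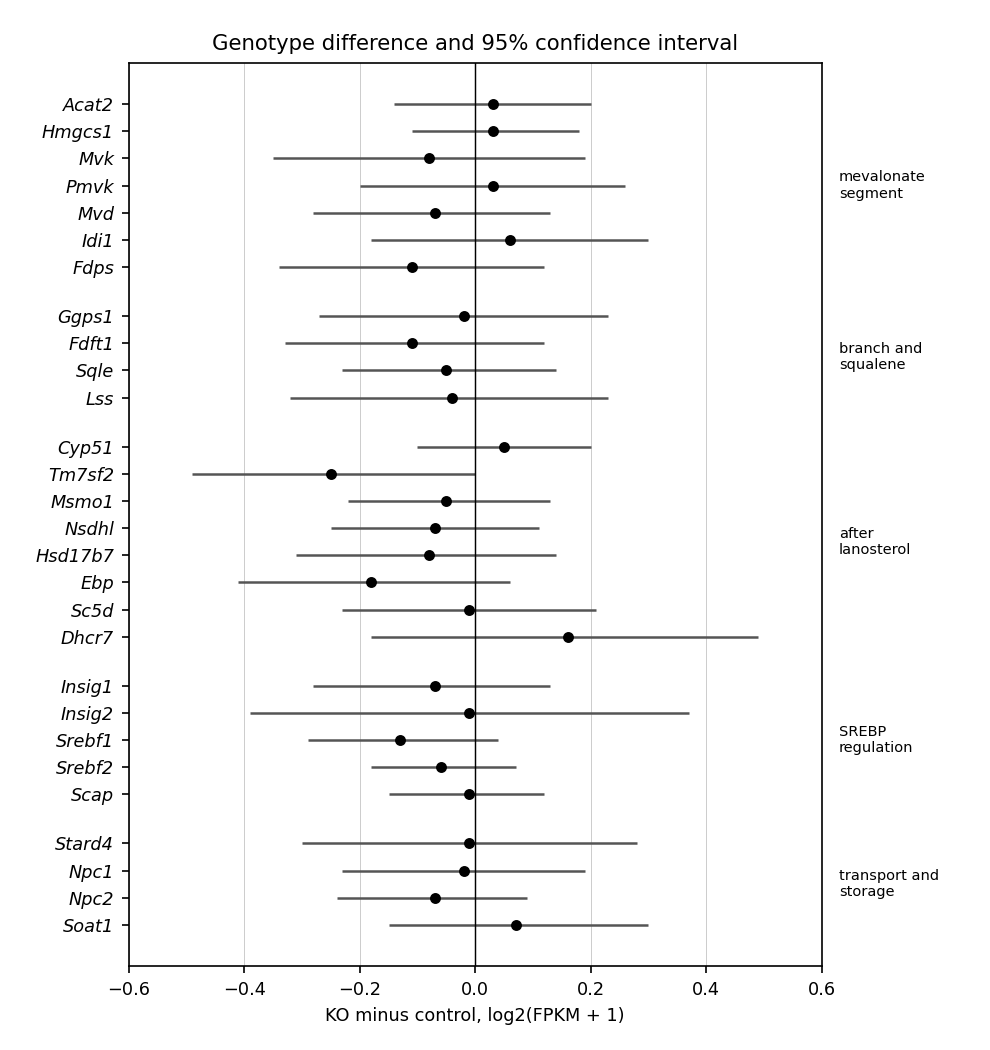
Difference between KO and control on log2(FPKM + 1) for each of the 28 genes (point) with its 95% confidence interval from limma (line), grouped by role. The points lie between -0.25 (Tm7sf2) and 0.16 (Dhcr7), and the widest intervals reach -0.49 and 0.49.

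Of the SREBP factors, Srebf2, which mainly drives sterol genes, was at 52.5, 54.2 and 52.6 FPKM in the controls and 52.2, 50.4 and 50.1 FPKM in the KO libraries. KO replicate 1 lay closest to the controls, the groups did not overlap, and the means were 53.1 ± 0.924 FPKM in control and 50.9 ± 1.12 FPKM in KO shelves (SD, n = 3 each), the latter 95.9% of the former. The log2 difference was -0.06 ± 0.05 (SE; limma, adjusted p = 1.00), and an exact permutation test (two-sided) returned p = 0.1, which is the smallest p for 20 assignments. The groups overlapped after median-of-ratios scaling and after rescaling to TPM. Srebf2 lies on chromosome 15 from 82147181 to 82205379, plus strand.

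Srebf1, which mainly drives fatty acid genes, was at 28.7, 29.4 and 26.0 FPKM in the controls and 24.7, 27.1 and 24.9 FPKM in the KO libraries, a log2 difference of -0.13 ± 0.07 (SE; limma, adjusted p = 1.00). Only KO replicate 2 reached the control range. Within each library Srebf2 was 1.83 to 2.12 times as high as Srebf1, by level per length. Scap, the escort of the precursors, had the lowest ratio of highest to lowest library of the 28 genes, 1.07, at 20.5, 20.7 and 20.3 FPKM in the controls and 20.5, 19.7 and 21.0 FPKM in the KO libraries.

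Insig1, the retention protein that is itself an SREBP target, was at 21.7, 23.2 and 20.8 FPKM in the controls and 18.6, 20.8 and 22.9 FPKM in the KO libraries (log2 difference -0.07 ± 0.09, SE). The groups overlap, with KO replicate 1 lowest. Its relative Insig2 was at 12.3, 8.22 and 7.63 FPKM in the controls and 8.08, 9.55 and 9.86 FPKM in the KO libraries, and control replicate 1 stood above the other 5. The log2 difference of Insig2 was -0.01 ± 0.16 (SE), and it was 0.18 without control replicate 1 (limma, adjusted p = 0.897). The ratio of Insig1 to Insig2 ranged from 1.77 in control replicate 1 to 2.82 in control replicate 2, and the KO libraries, at 2.18 to 2.33, lay inside that range.

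For transport and storage, Npc2, the soluble carrier of lysosomal cholesterol, was at 43.5, 47.6 and 45.7 FPKM in the controls and 40.8, 46.7 and 42.6 FPKM in the KO libraries (log2 difference -0.07 ± 0.07, SE). Npc1, its membrane partner, ran from 7.78 to 8.95 FPKM in the controls and 7.31 to 8.63 FPKM in the KO libraries (log2 difference -0.02 ± 0.09, SE). Soat1, which esterifies cholesterol for storage, was at 5.73, 4.68 and 4.94 FPKM in the controls and 5.55, 4.98 and 5.77 FPKM in the KO libraries (log2 difference 0.07 ± 0.10, SE). Stard4, a cytosolic sterol carrier, ran from 5.86 to 7.48 FPKM in the controls and 5.80 to 7.85 FPKM in the KO libraries. None of the 4 separated the groups.

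The 28 genes varied between libraries in a way that did not follow genotype. Each gene was set against its own mean over the 6 libraries, on log2(FPKM + 1). In control replicate 2, 24 of 28 genes lay above their mean, with a median deviation of 0.10, and in control replicate 3 only 6 did, with a median of -0.05. The 3 KO libraries lay between these controls, at 12, 13 and 14 of 28 genes and medians of -0.03, -0.02 and 0.00 in replicates 1 to 3. Control replicate 1 had 18 genes above their mean. The mevalonate segment had medians of 0.15 in control replicate 2 and 0.07 in KO replicate 2, and was at -0.06 to -0.03 in the other 4 libraries.

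**Figure D3:**
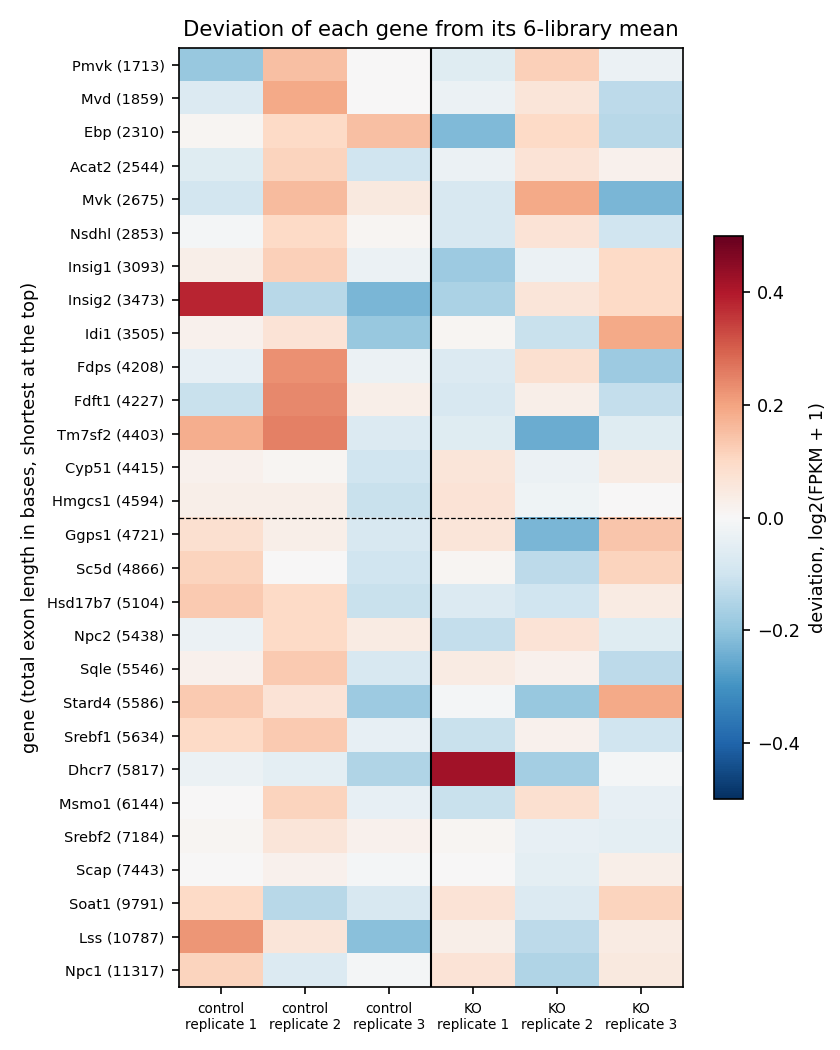
Heat map of the deviation of each gene from its 6-library mean on log2(FPKM + 1), by library, with genes ordered by total exon length (bases in brackets) and a dashed line between the 14 shorter and the 14 longer genes. Red is above and blue below the mean; the deepest cells are Dhcr7 in KO replicate 1 (0.42) and Insig2 in control replicate 1 (0.38).

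These deviations were related to gene length, a comparison chosen after the values were seen. Total exon length over the annotated transcripts ran from 1713 bases for Pmvk to 11317 bases for Npc1. In KO replicate 2, 9 of the 14 shorter genes (up to 4594 bases) and 4 of the 14 longer genes lay above their mean, and in KO replicate 1 the counts were 3 and 9. The correlation of deviation with log2 length across the 28 genes was 0.45, -0.46 and -0.29 in control and 0.41, -0.54 and 0.31 in KO replicates 1 to 3. Over 14504 tested genes with a length it had the same sign in each library, at 0.25, -0.18 and -0.07 in control and 0.12, -0.26 and 0.17 in KO replicates 1 to 3. The genes of a library share its depth and RNA, so these are descriptions without a test. Control replicate 2 and KO replicate 2, both high for short genes, also had the highest erythroid marker sums, 25300 and 30600 FPKM. The other libraries had 12900 to 19700 FPKM. Among them, control replicate 3, also with a negative correlation, had 13200 FPKM, and control replicate 1, with the highest correlation, had 19700 FPKM. The part of red cells or of RNA quality in these deviations was not tested.

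**Figure D4:**
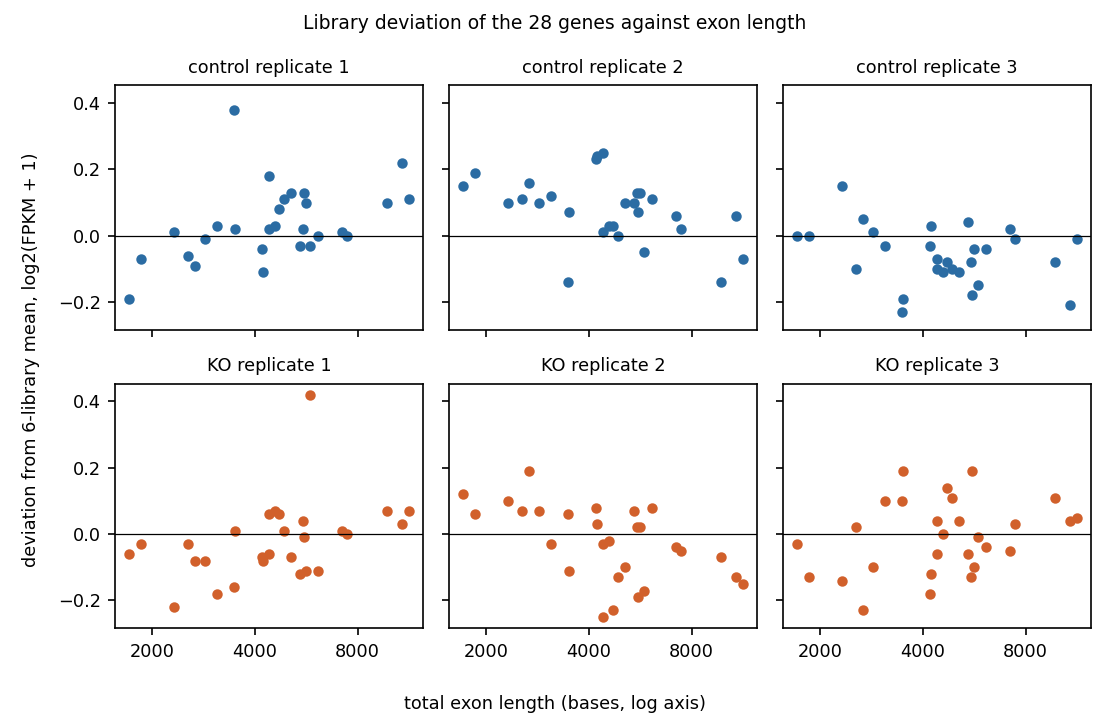
Deviation of each of the 28 genes from its 6-library mean, on log2(FPKM + 1), against its total exon length in bases (log axis), in 1 panel per library with controls in blue and KO in orange. Shorter genes lie higher than longer ones in replicate 2 of each genotype, with correlations of -0.46 and -0.54, and lower in replicate 1 of each, with 0.45 and 0.41.

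The rest of the sterol and lipid pathway was read from lists, of which no member passed in limma. Of 8 tested genes among other sterol synthesis genes, 0 passed and the median log2 difference was -0.06. Tmem97, a sterol-responsive membrane protein, was at 24.3, 24.5 and 26.9 FPKM in the controls and 20.7, 23.7 and 22.6 FPKM in the KO libraries (log2 difference -0.17 ± 0.07, SE). It was among the 2 of these 8 genes that were lower in KO without overlap, as were 5.79% of all tested genes. Among 15 genes for SREBP processing and turnover the median was -0.02, and Rnf145, a ubiquitin ligase of the pathway, was at 33.9 to 35.0 and 30.5 to 33.6 FPKM. Among 15 SREBP-1 targets of fatty acid synthesis the median was -0.04, and Fads2, a desaturase, was at 33.5 to 36.9 and 31.2 to 33.4 FPKM. Me1 of the same list was higher in KO, at 5.97 to 6.18 and 6.38 to 6.82 FPKM. In that list 1 gene was lower and 1 higher without overlap. None of the genes named from these 3 lists passed (adjusted p = 1.00 for each in limma).

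Genes that use or move sterols and isoprenoids had medians of -0.07 over 11 sterol transfer genes, -0.03 over 13 isoprenoid users, -0.01 over 6 genes of lipoprotein uptake and 0.00 over 10 Hedgehog genes, with 0 passing in each. Lipa, the lysosomal lipase that frees cholesterol from esters, was at 10.6, 11.6 and 13.4 FPKM in the controls and 13.1, 12.9 and 14.6 FPKM in the KO libraries (log2 difference 0.18 ± 0.10, SE), with overlap. Gli1, a Hedgehog target, was at 50.1, 44.9 and 44.3 FPKM in the controls and 40.1, 37.5 and 45.2 FPKM in the KO libraries (log2 difference -0.18 ± 0.09, SE). Rce1, a protease that trims prenylated proteins, was at 20.6 to 22.6 FPKM in the controls and 18.8 to 20.5 FPKM in the KO libraries, and Osbpl5, a sterol transfer protein, at 20.1 to 21.2 and 17.2 to 20.7 FPKM.

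The lowest and the highest difference in these lists were those of Hsd3b7 and Apoe. Of 7 tested oxysterol and ester enzymes 0 passed, with a median of -0.01. Lcat, which esterifies cholesterol on lipoproteins, was at 5.38, 5.53 and 4.98 FPKM in the controls and 4.25, 4.40 and 4.40 FPKM in the KO libraries (log2 difference -0.23 ± 0.08, SE; limma, adjusted p = 1.00). Hsd3b7, an enzyme of bile acid synthesis, had a control mean of 8.17 ± 0.152 FPKM (SD, n = 3) and was at 3.90, 6.45 and 7.18 FPKM in the KO libraries. Its log2 difference was -0.46 ± 0.18 (SE; limma, adjusted p = 1.00). In both, every KO value lay below every control. They were the 2 of the 7 with this pattern, which was found in 5.79% of all tested genes. Of 9 tested genes of LXR signalling and efflux 0 passed, with a median of -0.01. Apoe, the lipoprotein that carries cholesterol out of macrophages and glia, was at 50.0, 57.3 and 71.9 FPKM in the controls and 83.1, 94.5 and 65.2 FPKM in the KO libraries (log2 difference 0.43 ± 0.16, SE; limma, adjusted p = 1.00), and the groups overlap.

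A pair of genes under the level for testing, named after their values were seen, separated the groups. Ch25h, which makes 25-hydroxycholesterol and is known as an interferon-induced gene, was at 0.596, 0.634 and 0.310 FPKM in the controls and 0.805, 1.01 and 0.804 FPKM in the KO libraries. Nr1h3, the oxysterol receptor LXR alpha, was at 0.189, 0.370 and 0.247 FPKM in the controls and 0.780, 0.654 and 0.466 FPKM in the KO libraries. Fitted with no filter over 25387 genes, neither passed (limma, adjusted p = 0.965 for Ch25h and 0.709 for Nr1h3). Of those genes, 3.56% were higher in KO without overlap. The other sterol and lipid list genes under the level for testing overlapped between groups or were at 0 in every library. The leukocyte markers were at higher values in KO too, though 0 of the 9 tested passed in limma. The 10 markers, none at 0 in any library, summed to 57.8 to 72.4 FPKM in the controls and 84.5 to 113 FPKM in the KO libraries, with no overlap for 8 of the 10. Of the 9 tested, 7 were higher in KO without overlap, as were 3.27% of all tested genes. The 7 endothelial markers summed to 124 to 141 FPKM in the controls and 101 to 123 FPKM in the KO libraries, and 3 of the 7 were lower in KO without overlap, as were 5.79% of all tested genes. The part of leukocytes and endothelium in the values of Apoe, Lipa, Ch25h and Nr1h3 was not tested.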

How the data were processed

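Total RNA of palatal shelves was sequenced, per the labels, in 3 libraries of each genotype. The authors deposited 1 table of FPKM values for 55631 Ensembl gene IDs. The submitters' processing notes name mm10 and DESeq2 version 1.5.2. The aligner is not given in the sources used here, nor are the counter, annotation release and strand, and the depth behind the values is unknown. Titles gave the groups and library names the columns.

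Symbols, positions and exon lengths came from GENCODE M21 (GRCm38). Values were fitted as log2(FPKM + 1) with limma version 3.58.1 (R version 4.3.3), with genotype alone and a trended eBayes, over genes whose mean reached 1 FPKM. P-values were two-sided and adjusted by Benjamini-Hochberg over the 14714 genes, with a threshold of 0.05. The same code was tested on simulated data. A gene's value counts as overlapping when KO and control ranges meet. Alternatives changed pseudocount, filter, scaling, variance model, library weights, replicate block, sex and each library in turn.

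All members were to be named, with up to 4 genes of smallest p from each other list. Values of some list genes are not reported here. The members and lists were chosen with earlier results of these data known. Of the listed names, Faxdc2 matched no gene ID.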

Additional observations from a re-analysis of the deposited data

How the results depend on the processing

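Across 19 alternatives, 0 of the 28 genes passed in either direction in limma, and the lowest adjusted p of any of them was 0.271, for Ebp with library weights. The median difference ranged from -0.08 to -0.01. Of the 28 genes, 13 kept the sign of their difference under all alternatives and 15 did not in at least 1, and the main difference of those 15 was at most 0.16 in size. With library weights 6 of the 28 genes had an unadjusted p under 0.05, as did 14.8% of all tested genes. The count of genes below 0 was 17 of 28 after median-of-ratios scaling and 15 of 28 after rescaling to TPM, where 0 genes in each case, in place of 1, had no overlap between groups. Leaving out 1 library makes such a pattern easier to reach: it was lower in KO in 6 genes and higher in 2 without KO replicate 2 (15.4% and 9.79% of all tested genes). It was lower in 5 genes and higher in 0 without control replicate 3 (9.68% and 4.93%), and lower in 3 and higher in 1 without control replicate 1 (15.1% and 7.36%). Without control replicate 2 it was lower in 1 and higher in 1 (8.54% and 5.39% of all tested genes). Without KO replicate 3 it was lower in 2 and higher in 0 (11.8% and 6.48%). Without KO replicate 1 it was lower in 1 and higher in 0 (9.72% and 6.1%). Over all genes, 24 were higher and 0 lower with a filter at a mean of 5 FPKM, and 2 were lower with no filter, with a filter at 0.1 FPKM and with the sex covariate. Leaving out 1 library gave 1 to 2 lower genes. Same-numbered libraries correlated at 0.02, 0.31 and -0.24 in their deviations from the group means, and differently numbered ones at -0.28 to 0.31. With 3 libraries in each group, these values cannot show whether replicate numbers pair the libraries. With the replicate block 0 of the 28 genes passed and their median was -0.04. The filter at 5 FPKM left 27 of the 28 genes in the test. The number of libraries, and an unknown depth, limit what could be detected.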
